A study of Mus musculus with 576 samples.

Results

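The effect of lipopolysaccharide (LPS) was described in p27 negative haematopoietic stem cells (HSCs) of mouse bone marrow by setting LPS p27 negative cells against control p27 negative cells. Members were the single cells that the labels place in these groups and that held at least 50000 reads in genes and at least 1000 genes, with no readout used to choose them. Of 96 LPS cells 92 were kept and of 96 control cells 95, so that 187 of the 547 kept cells of the series were described. The removed LPS cells held between 5750 and 12057 gene reads and the shallowest kept one 80224, and the removed control cell held 25956 and the shallowest kept one 63015. Every cell of both groups came from marrow flushed out of femurs and tibias, after red cell lysis, and was sorted as CD150+CD48-cKit+Sca1+, a surface phenotype enriched for long-term HSCs, and carries the label of a p27 negative cell. The title of the series speaks of G0 markers and of dormant and active HSCs. The LPS group is labelled LPS_treated and p27_negative and the control group Ctrl and p27_negative. Strain, age and number of the mice, dose of LPS and length of treatment are given neither by the labels nor by the series text. RNA was amplified and sequenced as 1 library per cell, following the protocol of Picelli and colleagues.

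LPS is a component of the outer membrane of Gram-negative bacteria and is sensed by Toll-like receptor 4. One arm of its signalling runs through the adaptor MyD88 to NF-kB, whose targets include cytokines, chemokines and the inhibitors that end the NF-kB response, and the other runs through the adaptor TRIF to interferon regulatory factors and the type I interferons. Secreted type I interferons act back on cells through their receptor and switch on antiviral effectors, and interferon-gamma acts on guanylate-binding proteins, immunity-related GTPases and antigen presentation. HSCs are mostly resting, and in mice inflammatory signals, interferons among them, are known to act on stem cells directly and through other cells of the marrow. The protein p27, encoded by Cdkn1b, inhibits cyclin-dependent kinases and accumulates in resting cells.

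Gene reads per kept cell ran from 80224 to 1878063 in LPS cells, with a median of 439918.5, and from 63015 to 1942773 in control cells, with a median of 390369. At an equal depth of 50000 reads per cell the median number of genes was 4913 in LPS cells and 4837 in control cells. Mitochondrially encoded genes took 3.41 to 8.86% of gene reads in LPS cells and 3.68 to 97.9% in control cells, where 2 cells were above 10%. The control cells numbered 1 to 32 stood apart: they held a median of 7.13 gene reads per ERCC spike-in read, against 33.8 and 36.4 in control cells 33 to 64 and 65 to 96, while the same 3 parts of the LPS cells held 52.4, 43.9 and 45.2. The same numbers stood apart among p27 low and p27 high control cells, with medians of 4.88 and 4.45. What sets this ratio was not tested, and calls of named genes that ended or began without these control cells are given below. Treatment and deposited table coincide, so that an effect of LPS and a difference between the tables cannot be told apart.

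**Figure D1:**
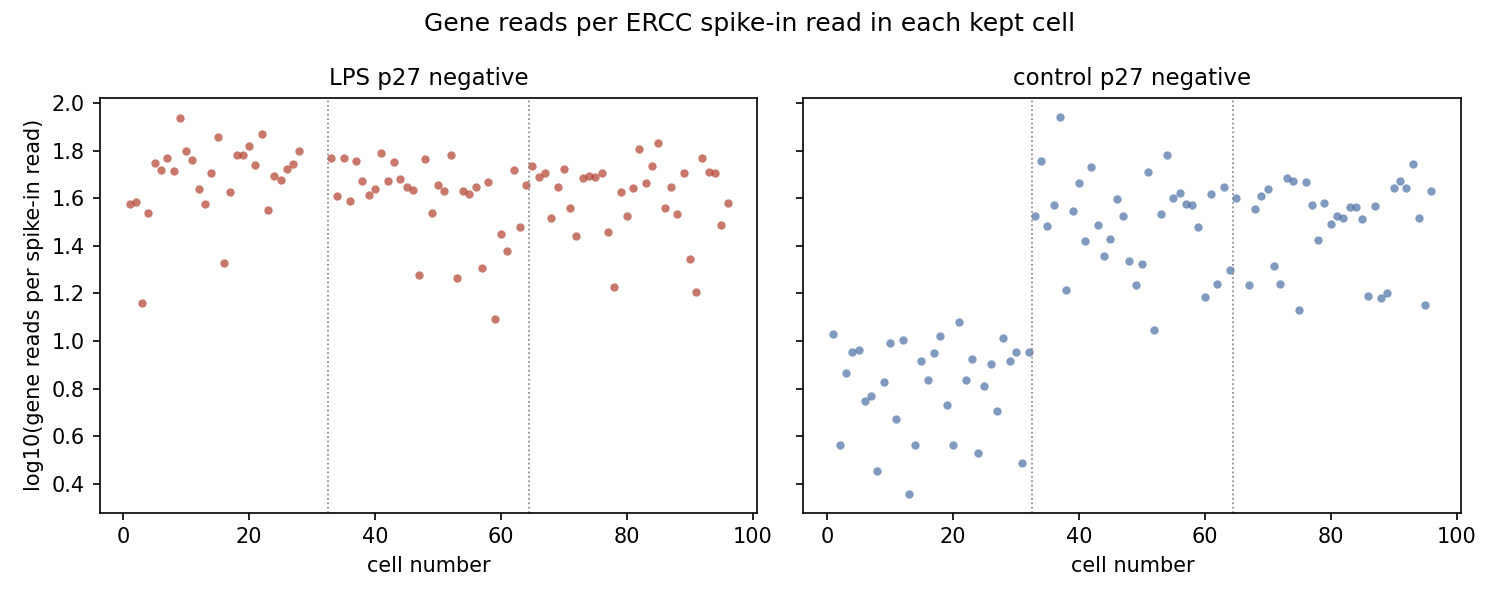
Gene reads per ERCC spike-in read (log10) in each kept cell against its cell number, LPS p27 negative cells on the left and control p27 negative cells on the right, with dotted lines after cells 32 and 64. Control cells 1 to 32 sit at a median ratio of 7.13, below the medians of 33.8 and 36.4 of the later control cells.

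Markers of other cells in the marrow were summed in both groups, and most of the sums were lower in LPS cells. Of the defining markers, Cd14, Adgre1 and Ctsg of myeloid cells, Cd3g of T cells, Cdh5 of endothelium and Prss34 of basophils had no read in either group. The summed level of 9 neutrophil markers was 112 CPM in LPS cells and 113 CPM in control cells, of 7 monocyte markers 355 CPM in LPS and 622 CPM in control cells, of 6 B cell markers 31.2 CPM in LPS and 83.4 CPM in control cells, and of 6 T and NK cell markers 122 CPM in LPS and 170 CPM in control cells. In LPS cells 5 erythroid markers summed to 40.5 CPM, 5 megakaryocyte markers to 944, 5 mast cell and basophil markers to 27.03, 4 dendritic cell markers to 162, 4 endothelial markers to 90.6 and 4 stromal markers to 0.694 CPM. In control cells the same sums were 98.6, 1321, 8.80, 83.01, 105 and 6.61 CPM. Per cell the summed dendritic cell markers, Cd74 among them, ran from 0 to 3253 CPM in LPS cells and from 0 to 1504 CPM in control cells, and their part in the results was not tested. Among the markers of the sort itself, Kit, the receptor of stem cell factor, was at 213 CPM in LPS cells and 337 CPM in control cells, and Slamf1, the gene of CD150, at 68.9 CPM in LPS and 52.5 CPM in control cells. Cd48, whose product the gate excludes, was at 3.96 CPM in LPS cells and 8.2 CPM in control cells.

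Levels are in CPM, the reads of a gene summed over the kept cells of a group per 1000000 summed gene reads, and the log2 fold is that of LPS over control cells after 1 CPM was added. Since the labels name no animals, the cells of a group are 1 sample and no difference was tested. A gene was called higher or lower where 3 measures differed by at least 2-fold, namely summed CPM, the CPM averaged over cells and the sum without the top cell of each group, among genes with a mean of at least 5 CPM over both groups. Intervals of levels are exact 95% Poisson intervals, which cover counting error only, as reads are not independent molecules, and shares of cells are given at 50000 reads per cell with exact 95% Clopper-Pearson intervals. With this many summed reads the intervals are narrow. They lie apart even for genes that were not called, Cdkn1b among them, so intervals that lie apart are not read as a difference. Levels are shares of all gene reads, so fewer reads of a gene and more reads of others cannot be told apart.

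Of 10752 genes past the filter, 450 (4.19%) were called higher in LPS cells and 691 (6.43%) lower, 10.6% together. Counts of calls in each list below are to be read beside these shares. The genes called higher stood further from control, with a median log2 fold of 2.03, against a median of -1.55 for those called lower, and a median of -0.13 for all genes past the filter, with quartiles at -0.52 and 0.22. By summed CPM alone 615 genes (5.72%) were at least 2-fold higher and 1073 (9.98%) at least 2-fold lower. The balance of the directions depends on scaling: genes called higher made up 39.4% of the calls with CPM, 49.1% with TMM factors and 50.4% with DESeq2 size factors. Scaling to the spike-ins moved the median of all genes by 1.78 on the log2 scale, and by 0.41 when control cells 1 to 32 were left out as well. Log2 folds are therefore to be read against the median of -0.13. Under spike-in scaling with all control cells a log2 fold between about -1.78 and 0 turns positive. Spike-in values below use all control cells, except where control cells 1 to 32 are said to be left out as well.

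**Figure D2:**
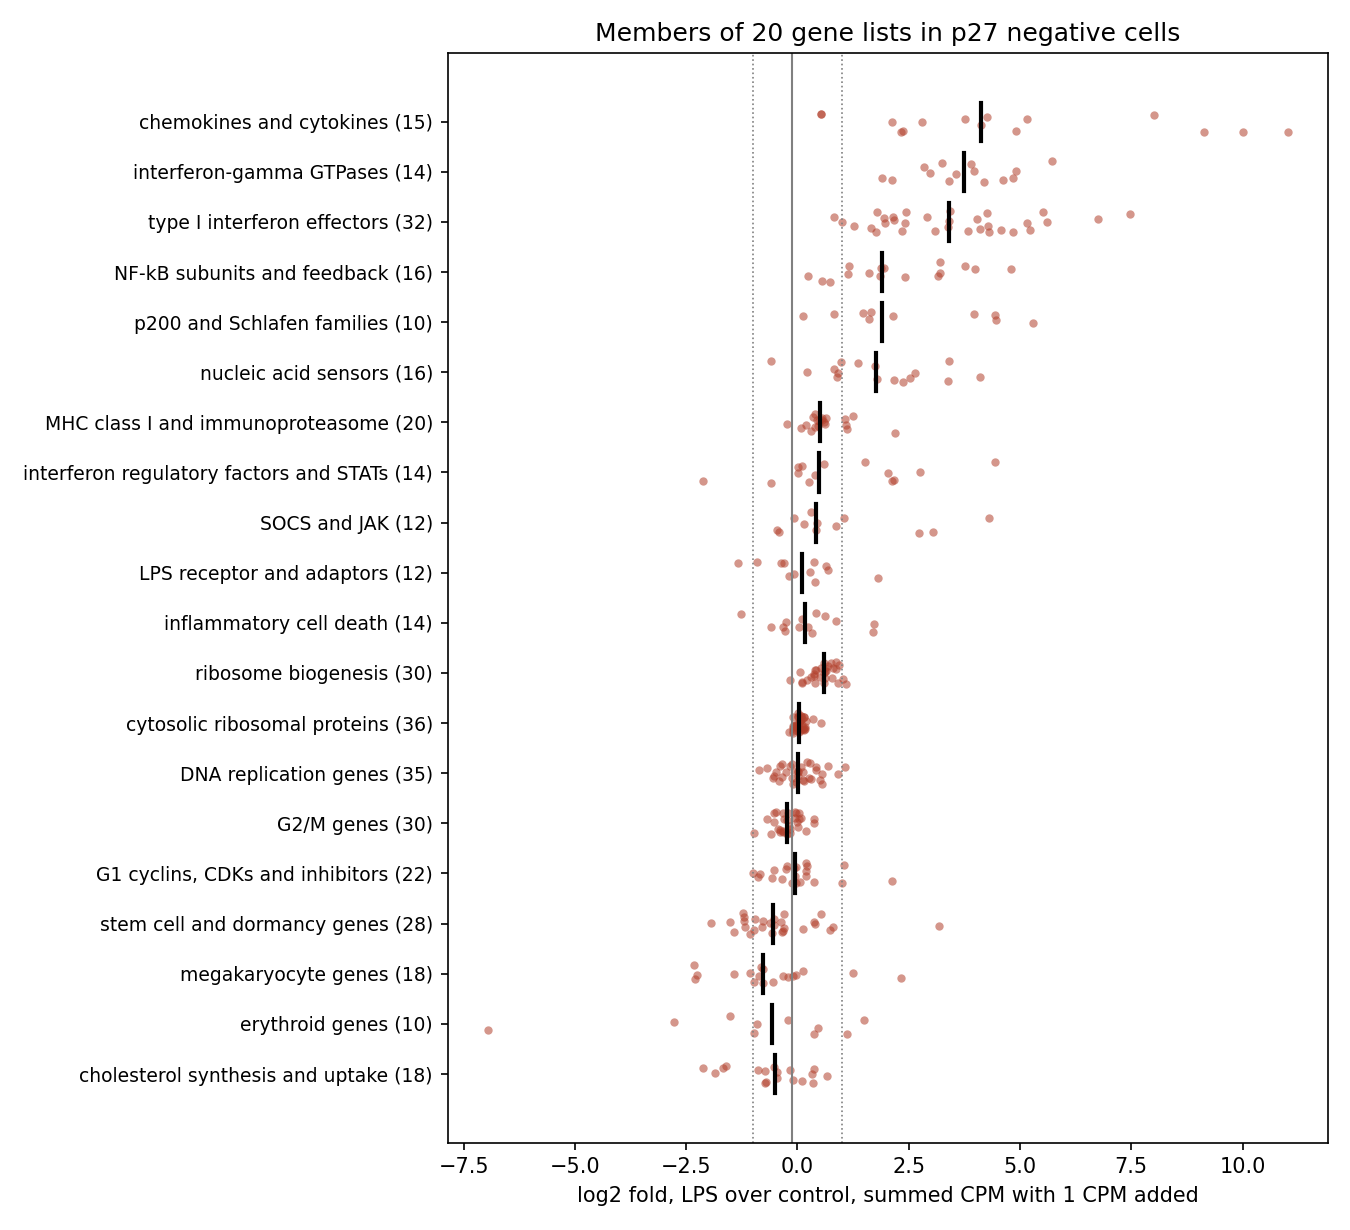
Log2 fold of LPS over control, from summed CPM with 1 CPM added, of each member of 20 gene lists that passed the filter (points, their number in brackets), with the median of each list as a black bar. The grey line marks the median of all genes at -0.13 and the dotted lines 2-fold, and the upper 6 lists lie with their medians at 1.76 or above.

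Chemokines stood furthest from control. Of 18 listed chemokine and cytokine genes 15 passed the filter, 13 of these were called higher and none lower, and their median log2 fold was 4.12. Cxcl10, a chemokine that draws T and NK cells through the receptor CXCR3, lies at chr5:92346638-92348889 in mm10. Its lowest, median and highest per-cell levels were 13.6, 1951 and 41019.5 CPM in LPS cells, against 0, 0 and 91.1 CPM in control cells. No LPS cell lacked a Cxcl10 read and 93 of the 95 control cells did, and 62 LPS cells lay above every control cell. LPS cell 5 was at 24.3 CPM with 1360407 gene reads and LPS cell 17 at 398.9 CPM with 80224, so both hold few Cxcl10 reads. Whether such reads are expression by the cell itself was not tested. The summed level of Cxcl10 was 7749.9 CPM (95% interval 7725 to 7775) in LPS cells and 2.77 CPM (2.28 to 3.32) in control cells, a log2 fold of 11.01. The genes named for the other ligands of CXCR3 were also far above control. Cxcl9 was at 564 CPM in LPS cells with no read in control cells, at least 7818-fold higher against a floor of 3 counts over the control group. Cxcl11, a polymorphic pseudogene in the annotation used, was at 1066 CPM in LPS cells, where 1 cell held 39.4% of its reads. It had 1 read in all control cells, a ratio of 44309 (95% counting interval 7952 to 1750127).

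Ccl5, which attracts T cells and monocytes, was at 1523 CPM in LPS cells and 4.95 CPM in control cells, and was read in 68.5% of LPS and 3.16% of control cells. Its per-cell levels were 0, 33.4 and 30621 CPM in LPS cells at the lowest, median and highest, against 0, 0 and 612 CPM in control cells, where 1 cell held 94.2% of the reads. The cytokines of acute inflammation were read in fewer cells. Il6, the acute-phase cytokine, was at 29.1 CPM and was found in 19.6% of LPS cells with no read in control cells, at least 403-fold higher. Tnf was at 27.4 CPM in LPS cells and 3.08 CPM in control cells, in 15.2% of LPS and 5.26% of control cells. At equal depth an LPS cell showed between 1 and 12 of the 15 genes past the filter, with a median of 5, and a control cell between 0 and 4, with a median of 1. In 54 of 92 LPS cells (58.7%, 47.95 to 68.9%) the number was above that of every control cell. The filter takes the mean of both groups, and 3 of the 15 genes had no control read and passed it through the LPS cells alone. These counts are therefore no separate support for a difference.

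The antiviral effectors of type I interferon were higher almost without exception. All 32 listed genes passed the filter, 30 were called higher and none lower, and the median log2 fold was 3.40. The genes not called were Lgals3bp, with a log2 fold of 0.9961, and Ifi27l2a, with 0.81. Mx1, a GTPase that restricts influenza viruses, was at 181 CPM in LPS cells with 1 read in control cells, a ratio of 7523 (1350 to 297171). Mx2 was at 106 CPM in LPS cells with no control read, at least 1474-fold higher. Ifit3, which binds viral RNA together with Ifit1, was at 73.01 CPM in LPS cells and 0.625 CPM in control cells, a log2 fold of 5.51.

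Oasl1, of the oligoadenylate synthetase family, was at 545 CPM (95% interval 538 to 552) in LPS cells and 10.2 CPM (9.29 to 11.3) in control cells. Its lowest, median and highest per-cell levels were 0, 62.01 and 3046 CPM in LPS cells and 0, 0 and 562 CPM in control cells. The upper range of single control cells overlapped the LPS cells. Rsad2, the gene of viperin, had lowest, median and highest per-cell levels of 2.33, 271 and 27678 CPM in LPS cells and 0, 0 and 4206 CPM in control cells, and a log2 fold of 5.21. Ifit1, at 1035 CPM in LPS cells and 28.2 CPM in control cells, had a log2 fold of 5.15, which became 7.88 without control cells 1 to 32, and 1 control cell held 92.6% of its control reads. Isg15, a ubiquitin-like protein attached to other proteins, was at 118 CPM in LPS and 3.17 CPM in control cells, a log2 fold of 4.83, and was read in 57.6% of LPS cells and 10.5% of control cells.

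The response was spread unevenly over LPS cells. Of the 32 effectors an LPS cell showed between 6 and 31 at equal depth, with a median of 23.5 and quartiles at 12 and 28, and a control cell between 0 and 16, with a median of 8. In 53 of 92 LPS cells (57.6%, 46.9 to 67.9%) the number was 17 or more and so above that of every control cell, and in the other 39 it lay within the control range. Between 6 and 15 effectors were seen in 38 LPS cells, and 16 in 1 cell. Another 6 cells showed 17 to 20 effectors, 12 cells 21 to 25 and 35 cells 26 or more. By cell number the medians were 26, 16 and 24.5 in LPS cells 1 to 32, 33 to 64 and 65 to 96, with ranges of 6 to 31, 6 to 30 and 7 to 31, and 8, 7 and 8 in the same parts of control cells. The labels tie no cell to an animal, so a difference among cells and one among animals cannot be told apart.

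**Figure D3:**
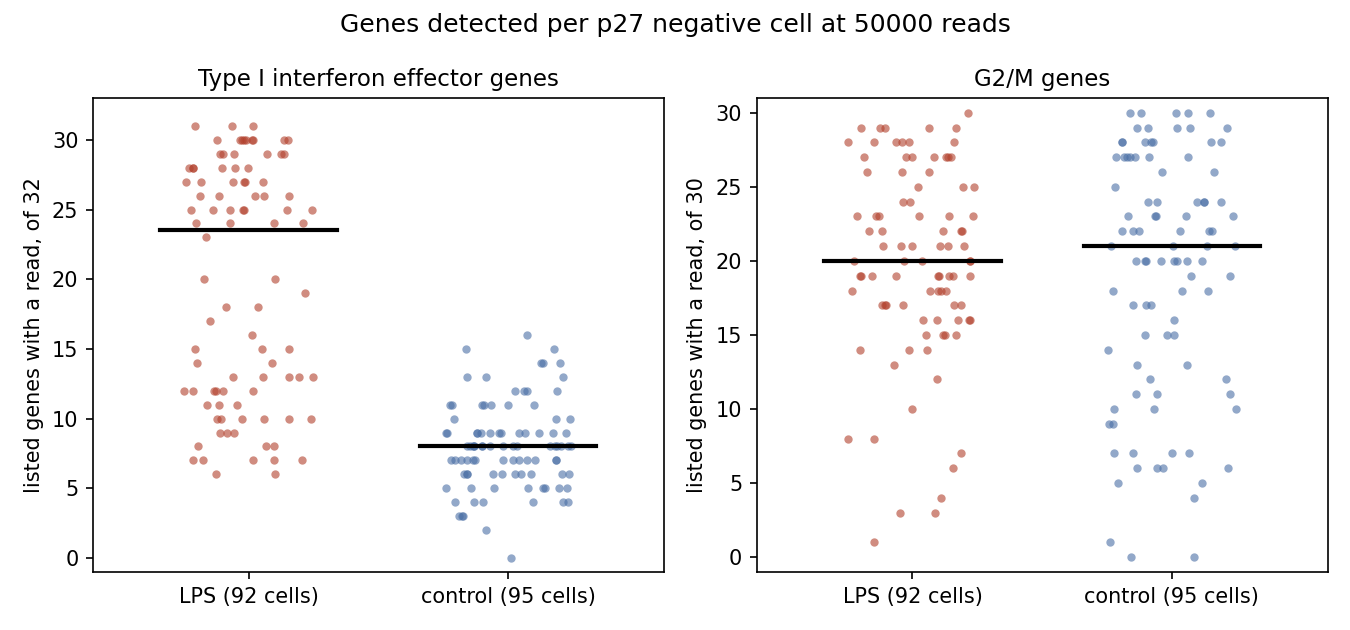
Number of listed genes with a read in each cell after thinning to 50000 reads, for 32 type I interferon effectors (left) and 30 G2/M genes (right), with 92 LPS cells to the left of 95 control cells and medians as black bars. For the effectors 53 LPS cells lie above the highest control cell, at 16, and for G2/M genes both groups cover nearly the whole range, with medians of 20 in LPS and 21 in control cells.

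GTPases that act against intracellular microbes formed the list with the highest median after the chemokines. Of 18 listed genes 17 were in the tables and 14 passed the filter, all 14 of which were called higher, with a median log2 fold of 3.73. Iigp1, an immunity-related GTPase that disrupts pathogen vacuoles, was at 691 CPM (95% interval 683 to 698) in LPS cells and 12.2 CPM (11.2 to 13.3) in control cells, a log2 fold of 5.71. Its lowest, median and highest per-cell levels were 0, 207 and 4987 CPM in LPS cells and 0, 0 and 739 CPM in control cells. 31 LPS cells lay above every control cell, 8 LPS cells had no read, and 76 of 95 control cells had none. Gbp5, a guanylate-binding protein that promotes inflammasome assembly, was at 159 CPM in LPS and 4.28 CPM in control cells. Gbp4 was at 52.8 CPM in LPS and 0.866 CPM in control cells, and Tgtp1 at 274 CPM in LPS and 10.2 CPM in control cells. Gbp3 was at 638 CPM in LPS and 34.1 CPM in control cells. Gm12185, a predicted gene, was also among the 12 genes ranked highest by the smallest of the 3 measures of a call, at 84.7 CPM in LPS cells and 0.601 CPM in control cells.

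The p200 and Schlafen families, which sense DNA or restrict the growth of cells and viruses, were higher as well. Of 17 listed genes 10 passed the filter, 8 were called higher and none lower, and the median log2 fold was 1.90. Slfn2 was at 323 CPM in LPS cells and 13.7 CPM in control cells. Mouse Slfn2 is known for keeping T cells and monocytes quiescent. Ifi204 was at 39.2 CPM in LPS cells with 1 control read, a ratio of 1631 (292 to 64433), Slfn5 at 15.01 CPM with 1 control read, a ratio of 624 (112 to 24694), and Ifi213 at 20.6 CPM with none, at least 286-fold higher. At equal depth Ifi204, Slfn5 and Ifi213 were read in 19.6%, 11.96% and 18.5% of LPS cells. Tgtp1 and Tgtp2, the Serpina3 genes, the Oas1 genes, the p200 genes, the H2-Q genes and the histone genes have near-identical copies, and how reads were split between copies is uncertain.

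The promoters of these genes were searched for the letters that interferon-activated factors and NF-kB are known to read. The interferon-stimulated response element (ISRE) was searched as GAAA, 2 bases of any kind and GAAA, the kB site of NF-kB as GGGA, 1 base of any kind and TTTCC, and the gamma-activated site (GAS) as TTC, 3 bases of any kind and GAA, on both strands of the 300 bases around each start site in the RefSeq table of GRCm38.p6. ISRE letters were found in 62 of the 337 genes called higher that had a promoter in the table (18.4%), in 12 of 555 called lower (2.16%), in 324 of 8046 genes past the filter (4.03%) and in 1131 of 32851 promoters in all (3.44%). Among the lists they were found in 13 of 25 type I interferon effectors, 9 of 10 GTPases and 6 of 9 p200 and Schlafen genes, and in none of 13 NF-kB genes. The kB letters were found in 8 of the 337 genes called higher (2.37%), 4 of 555 called lower (0.721%), 43 of 8046 past the filter (0.534%) and 135 of all 32851 promoters (0.411%), and in 2 of 13 NF-kB genes. GAS letters were found in 48 of 337 (14.2%), 40 of 555 (7.21%), 670 of 8046 (8.33%) and 2726 of 32851 (8.30%) in the same order, and in 6 of 10 GTPases. ISRE and GAS matches overlapped in 5 of the genes called higher and no other pair of motifs did. A match is a description of the letters and shows no binding.

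Promoter stretches of 160 bases that end just before the start site are shown for 6 genes with ISRE letters, 2 with kB letters and 1 with GAS letters, in capitals, so that the groups above can be read beside their sequence. Isg15, Gbp3 and Nfkbia were chosen for their motifs after their values had been seen, and the others from the named genes. In stretches of this length 1.72% of all promoters hold the ISRE letters, 0.237% the kB letters and 4.36% the GAS letters. All sequences are from RefSeq and GRCm38.p6 and run 5′ to 3′ on the strand of the gene. They lie at chr4:156200819-156200978 on the minus strand (Isg15), chr19:34583369-34583528 on the plus strand (Ifit3), chr1:173599273-173599432 on the minus strand (Ifi213), chr3:142559884-142560043 on the plus strand (Gbp3), chr11:48992247-48992406 on the minus strand (Tgtp1), chr16:10785537-10785696 on the minus strand (Socs1), chr3:142496774-142496933 on the plus strand (Gbp5), chr12:55492648-55492807 on the minus strand (Nfkbia) and chr11:53769854-53770013 on the plus strand (Irf1). Isg15 holds 3 overlapping ISRE matches, the first at -78, and Socs1 holds 2. Ifit3 holds 2 ISRE matches on the opposite strand, at -156 and -122, and Gbp3 2 overlapping ones on that strand, where the kB matches of Gbp5 and Nfkbia lie too. Gbp3 and Irf1 have 2 start sites in the table, of which 1 is shown.
Isg15: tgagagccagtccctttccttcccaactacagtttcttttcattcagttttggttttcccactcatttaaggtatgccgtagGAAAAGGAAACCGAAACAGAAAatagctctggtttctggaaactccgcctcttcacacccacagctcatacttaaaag
Ifit3: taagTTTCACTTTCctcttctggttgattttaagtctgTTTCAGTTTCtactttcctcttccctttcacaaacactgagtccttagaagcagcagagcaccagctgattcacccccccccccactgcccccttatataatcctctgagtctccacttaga
Ifi213: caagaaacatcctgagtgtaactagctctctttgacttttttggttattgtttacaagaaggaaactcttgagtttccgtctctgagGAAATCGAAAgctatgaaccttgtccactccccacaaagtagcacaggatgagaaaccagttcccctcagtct
Gbp3: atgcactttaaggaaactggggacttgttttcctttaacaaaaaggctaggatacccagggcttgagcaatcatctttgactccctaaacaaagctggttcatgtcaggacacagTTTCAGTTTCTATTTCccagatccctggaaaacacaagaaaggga
Tgtp1: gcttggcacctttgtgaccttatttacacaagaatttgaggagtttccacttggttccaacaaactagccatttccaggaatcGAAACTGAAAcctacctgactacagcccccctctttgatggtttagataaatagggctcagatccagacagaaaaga
Socs1: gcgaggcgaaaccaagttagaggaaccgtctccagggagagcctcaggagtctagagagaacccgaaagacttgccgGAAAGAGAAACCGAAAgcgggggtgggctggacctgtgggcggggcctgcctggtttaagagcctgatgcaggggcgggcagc
Gbp5: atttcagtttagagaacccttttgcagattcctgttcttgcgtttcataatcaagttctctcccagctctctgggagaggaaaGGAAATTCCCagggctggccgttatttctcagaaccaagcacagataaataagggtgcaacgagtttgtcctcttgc
Nfkbia: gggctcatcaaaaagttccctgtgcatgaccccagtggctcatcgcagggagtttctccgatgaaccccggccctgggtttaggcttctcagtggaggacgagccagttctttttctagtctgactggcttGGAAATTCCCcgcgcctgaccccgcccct
Irf1: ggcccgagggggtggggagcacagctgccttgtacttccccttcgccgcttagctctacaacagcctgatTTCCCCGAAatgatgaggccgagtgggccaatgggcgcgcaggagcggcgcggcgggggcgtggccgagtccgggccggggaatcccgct

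Many genes of nucleic acid sensing were called higher. Of 21 listed genes 16 passed the filter, 10 were called higher and none lower, and the median log2 fold was 1.76. Zbp1, a sensor of Z-form nucleic acid that can trigger necroptosis, was at 87.95 CPM in LPS cells and 4.18 CPM in control cells, a log2 fold of 4.10. Ddx58, the gene of the RNA sensor RIG-I, was at 234 CPM in LPS and 21.4 CPM in control cells, and Dhx58, the gene of its relative LGP2, at 189.8 CPM in LPS and 29.8 CPM in control cells. Parp14, an ADP-ribosyltransferase, had a log2 fold of 3.39. Mavs, the adaptor of RIG-I, was not called, with a log2 fold of 0.20.

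Antigen presentation genes were called in both directions. All 20 listed MHC class I and immunoproteasome genes passed the filter, 19 had a log2 fold above 0 and 3 were called higher, with a median of 0.51. Those called were Nlrc5, the transactivator of MHC class I genes, at 119.8 CPM in LPS cells and 25.4 CPM in control cells, Tap1, a subunit of the peptide transporter, at 683 CPM in LPS and 316 CPM in control cells, and Tapbp, the peptide-loading chaperone tapasin, at 451 CPM in LPS and 189 CPM in control cells. Of 7 MHC class II genes 6 passed the filter, with a median log2 fold of -0.60 that became 1.19 under spike-in scaling and, over 5 genes, -0.05 without control cells 1 to 32. Cd74, the invariant chain, was called higher, at 135 CPM in LPS cells and 31.5 CPM in control cells, where 1 cell held 69.04% of its reads, and its log2 fold was 2.07 with all cells and 4.55 without control cells 1 to 32. H2-Eb1, a class II beta chain, was called lower, at 1.98 CPM in LPS cells and 19.7 CPM in control cells, a log2 fold of -2.79 that became -1.29 without control cells 1 to 32, where it was not called.

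The factors that carry the interferon signal were divided. Of 15 listed interferon regulatory factors and STATs 14 passed the filter, 6 were called higher and 1 lower, with a median log2 fold of 0.49. Irf7, the factor that amplifies type I interferon, was at 413 CPM in LPS cells and 18.2 CPM in control cells, a log2 fold of 4.43. Irf1 had lowest, median and highest per-cell levels of 0, 772 and 5782 CPM in LPS cells and 0, 11.9 and 1282 CPM in control cells. 32 LPS cells lay above every control cell and 84 above the control median, so the groups overlapped. Summed over cells it was at 1212 CPM (95% interval 1202 to 1222) in LPS cells and 179 CPM (175 to 183) in control cells, a log2 fold of 2.75. Irf8, a factor of monocyte and dendritic cell development, was called lower, at 7.65 CPM in LPS cells and 36.8 CPM in control cells, with 49.9% of its LPS reads and 51.8% of its control reads in 1 cell, and with each cell thinned to 50000 reads its log2 fold of -2.13 became -0.83 and was under 2-fold. Irf8 was not called without control cells 1 to 32 either, which left none of this list lower.

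Feedback inhibitors of cytokine signalling were among the genes called higher, while none of the JAK kinase genes was called. All 12 listed SOCS and JAK genes passed the filter, 3 were called higher and none lower, and the median log2 fold was 0.42. Socs3, which restrains signalling of the IL-6 type, was at 62.1 CPM in LPS cells and 2.19 CPM in control cells, a log2 fold of 4.31. Socs1, which restrains interferon signalling, was at 49.2 CPM in LPS and 5.098 CPM in control cells, and Cish, a target of STAT5, at 248 CPM in LPS and 36.6 CPM in control cells. Of 15 cytokine receptor genes 14 passed the filter and 3 were called higher, with a median log2 fold of 0.13. They were Csf2rb, the shared beta chain of the receptors for GM-CSF, IL-3 and IL-5, at 49.8 CPM in LPS cells and 6.33 CPM in control cells, Il1r1, with a log2 fold of 1.29, and Ifngr2, with 1.10, which became 0.88 and was not called without control cells 1 to 32.

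The LPS receptor pathway itself was near the median of all genes. Of 14 listed genes 12 passed the filter, none was called higher and 1 lower, and the median log2 fold was 0.09. Tlr4, the receptor, was at 10.8 CPM (95% interval 9.89 to 11.8) in LPS cells and 11.5 CPM (10.5 to 12.6) in control cells, and was read in 8.696% of LPS and 11.6% of control cells. Cd14 had no read in either group. Tlr2 was at 35.05 CPM in LPS cells and 9.23 CPM in control cells, a log2 fold of 1.82, and was not called with all cells but was called higher, at 1.70, without control cells 1 to 32. The list then held 1 gene called higher and 2 lower. Myd88 was at 139.8 CPM in LPS and 86.9 CPM in control cells. Ticam2, the adaptor that links TLR4 to TRIF, was called lower, at 3.43 CPM in LPS and 10.3 CPM in control cells, with reads in 5.43% of LPS cells and 6.32% of control cells, and its log2 fold of -1.35 became -0.41 with cells thinned to 50000 reads.

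NF-kB subunits and their inhibitors stood well above control. All 16 listed genes passed the filter, 13 were called higher and none lower, and the median log2 fold was 1.91. Relb, the subunit of the alternative pathway, was at 257 CPM in LPS cells and 8.22 CPM in control cells, where 1 cell held 72.5% of its reads, a log2 fold of 4.80. Bcl3, an atypical inhibitor-type protein that binds p50 and p52, was at 253 CPM (95% interval 248 to 257) in LPS cells and 15.1 CPM (13.9 to 16.3) in control cells, with lowest, median and highest per-cell levels of 0, 114 and 1071 CPM in LPS and 0, 0 and 439.7 CPM in control cells. 17 LPS cells lay above every control cell, and Bcl3 reads were lacking in 15 LPS cells and 77 control cells. Traf1, an adaptor of TNF receptors, was at 146 CPM in LPS and 9.86 CPM in control cells, and Nfkbiz, a nuclear co-regulator, at 48.6 CPM in LPS and 4.35 CPM in control cells. Nfkbia, the gene of the classical inhibitor IkB-alpha, was at 1292 CPM in LPS and 334 CPM in control cells. Rela, Nfkbib and Tnip2 were not called, with log2 folds of 0.55, 0.73 and 0.23. At equal depth 40 of 92 LPS cells (43.5%, 33.2 to 54.2%) showed more of the 16 genes than every control cell.

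Among all genes past the filter 4.19% were called higher, and a larger share of the immediate early genes was. Of 22 listed genes 15 passed the filter, 3 were called higher and none lower, with a median log2 fold of 0.47. They were Atf3, a stress-induced repressor, at 27.8 CPM in LPS cells with no control read and so at least 385-fold higher, Junb, a subunit of AP-1, at 202 CPM in LPS cells and 38.9 CPM in control cells, and Nr4a1, an orphan nuclear receptor, at 12.4 CPM in LPS and 2.89 CPM in control cells. Nr4a1 was read in 14.1% of LPS cells and 6.32% of control cells.

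The Serpina3 protease inhibitors were the acute-phase genes that differed. Of 16 listed acute-phase and granule genes 6 passed the filter, 2 were called higher and none lower, and the median log2 fold was -0.08, which turned positive with TMM, DESeq2 and spike-in scaling and, at 0.07, without control cells 1 to 32. Serpina3g, an inhibitor of cysteine proteases known from activated T cells and HSCs in mice, had lowest, median and highest per-cell levels of 105, 5825 and 55110.4 CPM in LPS cells and 2.22, 775 and 5325 CPM in control cells. Every cell of both groups held a read, 90 of 92 LPS cells lay above the control median and 47 above every control cell. Its summed level was 12429 CPM (95% interval 12397 to 12459.7) in LPS cells and 1024 CPM (1015 to 1034) in control cells, a log2 fold of 3.60. Its neighbour Serpina3f was at 2128 CPM in LPS and 42.5 CPM in control cells, and Serpina3i, outside that list but among the same 12 ranked genes, at 55.1 CPM in LPS and 0.144 CPM in control cells. Prtn3, a granule protease of immature neutrophils, was at 108 CPM in LPS cells and 96.2 CPM in control cells, and Mpo at 2.57 CPM in LPS and 11.6 CPM in control cells, neither called with all cells, while Mpo was called lower, at -2.48, without control cells 1 to 32.

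**Figure D4:**
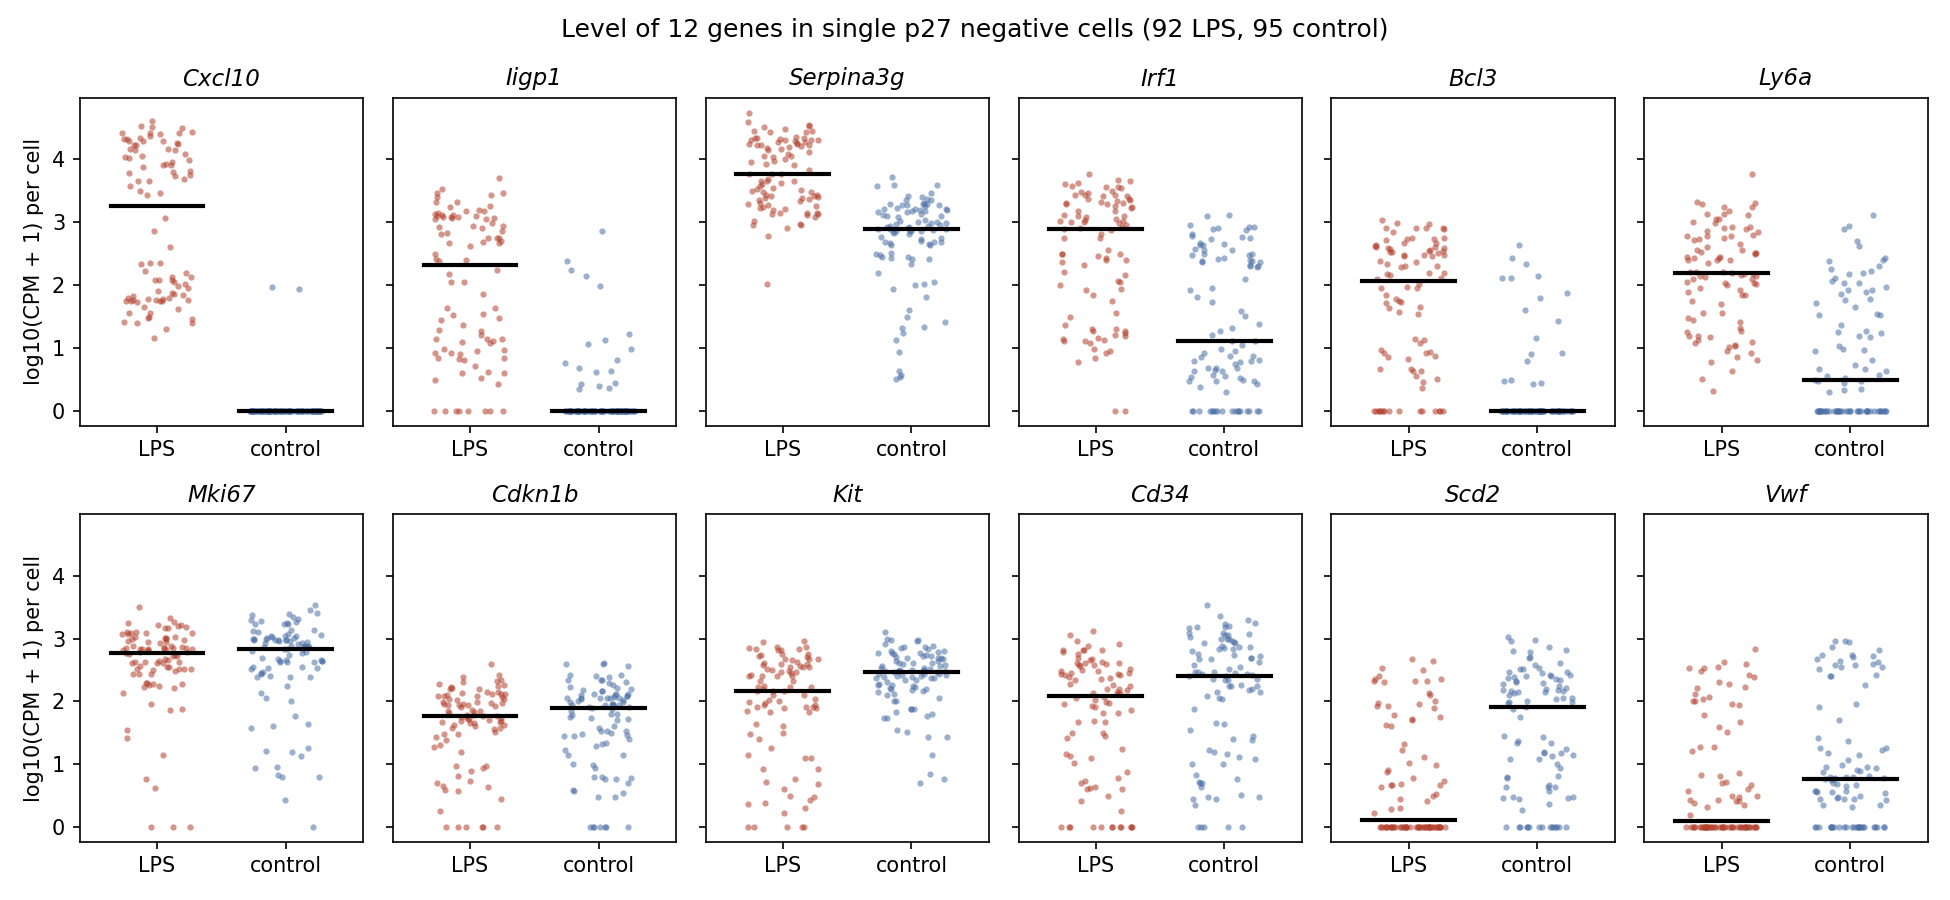
Level of 12 genes in single cells as log10(CPM + 1), with 92 LPS cells to the left of 95 control cells and medians as black bars. Cxcl10 and Serpina3g have the LPS median above every control cell, whereas Mki67 and Cdkn1b cover the same range in both groups and Scd2 and Vwf have the lower median in LPS cells.

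Some surface signals to immune cells were higher. Of 15 listed checkpoint and adhesion genes 14 passed the filter, 5 were called higher and none lower, with a median log2 fold of 0.40. Cd274, the gene of the inhibitory ligand PD-L1, was at 135 CPM in LPS cells and 32.99 CPM in control cells, and was read in 61.96% of LPS and 22.1% of control cells. Pdcd1lg2, the gene of the second ligand of PD-1, had a log2 fold of 2.48, Cd86, a costimulatory ligand, 1.84, with no call without control cells 1 to 32, Icam1, an adhesion receptor, 1.52, or 2.87 without control cells 1 to 32, and Cd44, the hyaluronan receptor, 1.21.

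Genes of inflammatory cell death and of p53 were called in both directions, beside 4.19% of all genes called higher and 6.43% lower. Of 17 listed death genes 14 passed the filter, 2 were called higher and 1 lower, with a median log2 fold of 0.17. Casp4, which encodes the caspase that senses cytosolic LPS, was at 173 CPM in LPS cells and 51.5 CPM in control cells, and Fas, a death receptor, at 20.8 CPM in LPS and 5.75 CPM in control cells, and its log2 fold of 1.69 became 3.02 without control cells 1 to 32. Pycard, the inflammasome adaptor ASC, was called lower, at 58.8 CPM in LPS cells and 144 CPM in control cells. Its log2 fold of -1.28 became -0.92 with cells thinned to 50000 reads, and it was not called without control cells 1 to 32. Of 16 genes of the Bcl-2 family and p53 targets 14 passed the filter, 1 was called higher and 3 lower, with a median log2 fold of -0.18, positive at 1.61 under spike-in scaling and, over 13 genes, at 0.16 without control cells 1 to 32, where 1 gene was called higher and 1 lower. Cdkn1a, the gene of the cell cycle inhibitor p21 and a p53 target, was at 123 CPM in LPS cells and 27.8 CPM in control cells, where 1 cell held 60.8% of its reads. The p53 targets Phlda3, Eda2r and Trp53inp1 were called lower, with log2 folds of -2.86, -2.43 and -1.52, and Phlda3 and Eda2r, neither of which was called without control cells 1 to 32, were read in 2.17% and 2.17% of LPS cells and in 4.21% and 6.32% of control cells.

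No gene listed for the G2 phase and mitosis was called. All 30 listed G2/M genes passed the filter, with a median log2 fold of -0.23. The median became -0.51 without control cells 1 to 32 and 1.59 under spike-in scaling. It was -0.10 under spike-in scaling when control cells 1 to 32 were left out as well. Mki67, the proliferation marker Ki-67, had lowest, median and highest per-cell levels of 0, 592 and 3216 CPM in LPS cells and 0, 682 and 3365 CPM in control cells. No LPS cell lay above the highest control cell, and 37 of 92 were above the control median. Summed over cells it was at 656 CPM (95% interval 649 to 663) in LPS cells and 804 CPM (795 to 813) in control cells. The mitotic kinesins Kif20a and Kif11 were the members furthest from 0, with log2 folds of -0.98 and -0.69. At equal depth 5 or more of the 30 genes were seen in 88 of 92 LPS cells (95.7%, 89.2 to 98.8%) and in 91 of 95 control cells (95.8%, 89.6 to 98.8%), a count of genes and not a call of a cell cycle phase. The median number was 20 in LPS cells, with quartiles at 16.75 and 25, and 21 in control cells, with quartiles at 12.5 and 26.5. With a limit of 15 genes the shares were 84.8% (75.8 to 91.4%) of LPS cells and 71.6% (61.4 to 80.4%) of control cells. Control cells 1 to 32 had a lower median than the rest, 18.5 against 24 and 20, and without them every control cell showed 5 or more.

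DNA replication genes gave no call either, with 35 of 35 past the filter and a median log2 fold of 0.01. The median number seen per cell was 25.5 of 35 in LPS cells and 22 in control cells. Ung, a uracil glycosylase, and Chaf1a, a histone chaperone, were the highest members, with log2 folds of 1.06 and 0.91, and Cdt1, the licensing factor, the lowest, with -0.86. Of 22 listed G1 cyclins, kinases and inhibitors all passed the filter, 2 were called higher and none lower, with a median log2 fold of -0.05, which turned positive with TMM, DESeq2 and spike-in scaling. Those called were Cdkn1a and Mxd1, an antagonist of Myc, at 41.7 CPM in LPS cells and 19.8 CPM in control cells, and Mxd1 was not called without control cells 1 to 32. Ccnd2, the cyclin D2 gene, was at 679 CPM in LPS cells and 337 CPM in control cells, a log2 fold of 1.01, without being called. Cdkn1b, which encodes p27, had per-cell levels of 0, 57.5 and 388 CPM in LPS cells and 0, 77.3 and 403 CPM in control cells at the lowest, median and highest. The sum over cells was 74.9 CPM (95% interval 72.5 to 77.3) in LPS cells and 81.9 CPM (79.1 to 84.7) in control cells, a log2 fold of -0.13, equal to the median of all genes. The RNA of Cdkn1b does not show the state of a marker on the protein. Of 16 replication-dependent histone genes 11 passed the filter and 1 was called, Hist1h2bc, which was lower at 25.6 CPM in LPS cells and 152 CPM in control cells.

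Among genes of the stem cell state, Ly6a stood apart from the rest. Of 29 listed stem cell and dormancy genes 28 passed the filter, 1 was called higher and 7 lower. The median log2 fold was -0.55, against 1.23 under spike-in scaling. With control cells 1 to 32 left out as well, spike-in scaling gave -0.02. Ly6a, which encodes the Sca-1 antigen used in the sort and is known to be induced by interferons in mice, had lowest, median and highest per-cell levels of 1.102, 156 and 5927 CPM in LPS cells and 0, 2.06 and 1318 CPM in control cells. It was read in every LPS cell and lacking in 41 control cells, and 91 of 92 LPS cells were above the control median and 10 above every control cell. The control median and the lowest LPS level, in a cell with 907822 gene reads, rest on very few reads. The summed level of Ly6a was 455 CPM (95% interval 449 to 461) in LPS cells and 49.7 CPM (47.6 to 51.9) in control cells, a log2 fold of 3.17. Sca-1 is part of the gate, so a change within cells and a change in which cells passed it cannot be told apart. The genes called lower included Vwf, a mark of platelet-biased HSCs, at 50.6 CPM in LPS cells and 138 CPM in control cells, and Tek, the receptor of angiopoietin, at 22.99 CPM in LPS and 67.8 CPM in control cells. Robo4, an adhesion receptor of HSCs, was at 8.55 CPM in LPS and 35.8 CPM in control cells, and the cation channel gene Trpc6 at 22.2 CPM in LPS and 52.8 CPM in control cells. Txnip, an inhibitor of thioredoxin and of glucose uptake, was at 432 CPM in LPS cells and 987 CPM in control cells, with per-cell medians of 319.5 CPM in LPS and 766 CPM in control cells.

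Genes of the progenitor gate other than Ly6a were lower or not called. Of 13 listed genes 11 passed the filter, 1 was called higher and 2 lower. The median log2 fold was -0.66, against 1.16 under spike-in scaling. With control cells 1 to 32 left out as well, spike-in scaling gave -0.09. Cd34, low in long-term HSCs of adult mice, was called lower, at 212 CPM (95% interval 208 to 216) in LPS cells and 462 CPM (455 to 468) in control cells, with per-cell medians of 123 CPM in LPS and 253 CPM in control cells. Without control cells 1 to 32 its log2 fold of -1.12 became -0.69, and it was not called. Kit had lowest, median and highest per-cell levels of 0, 146 and 919.7 CPM in LPS cells and 4.03, 287 and 1273 CPM in control cells, and 32 of 92 LPS cells were above the control median. Flt3, a receptor of multipotent and lymphoid progenitors, was at 26.5 CPM in LPS cells and 51.01 CPM in control cells. Ly6c2, a monocyte gene, was called lower at 0.734 CPM in LPS and 9.98 CPM in control cells, with reads in 1.09% of LPS cells and 3.16% of control cells and 73.01% of the control reads in 1 cell.

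Lineage genes were lower more often than higher. Of 20 listed megakaryocyte genes 18 passed the filter, 2 were called higher and 4 lower. The median log2 fold was -0.78, against 0.99 under spike-in scaling. With control cells 1 to 32 left out as well, spike-in scaling gave -0.52. Among subunits of the platelet receptor for von Willebrand factor, Gp5 and Gp1ba were called lower. The subunit genes Gp1bb and Gp9 are among the 5 megakaryocyte markers, which had log2 folds of -1.07 to -0.11 and no call. Gp5 was at 20.1 CPM in LPS cells and 105 CPM in control cells, and Gp1ba at 6.53 CPM in LPS and 36.02 CPM in control cells. Thbs1, the gene of thrombospondin 1, was called lower with reads in 5.43% of LPS cells and 6.32% of control cells. Selp, the adhesion receptor P-selectin, was called higher at 65.5 CPM in LPS cells and 12.2 CPM in control cells, as was Itgb3, an integrin subunit, at 132 CPM in LPS and 54.7 CPM in control cells.

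Of 16 erythroid genes 10 passed the filter and 3 were called lower. The median log2 fold was -0.56, against 1.23 under spike-in scaling. With control cells 1 to 32 left out as well, spike-in scaling gave -0.53. Klf1, the main erythroid factor of its family, was at 6.75 CPM in LPS cells and 51.7 CPM in control cells. Aqp1, a water channel, was at 25.4 CPM in LPS and 74.2 CPM in control cells. Car1, a carbonic anhydrase, was at 2.08 CPM in LPS cells and 384 CPM in control cells, and 1 control cell held 81.5% of its control reads. Of 21 granulocyte and monocyte genes 11 passed the filter, 2 were called higher and 2 lower, with a median log2 fold of 0.16, which turned to -0.33 over 12 genes without control cells 1 to 32, with 3 called higher and 2 lower. Cebpd, an inflammatory C/EBP factor, was at 34.8 CPM in LPS cells and 4.88 CPM in control cells, and Plac8 at 241 CPM in LPS and 88.1 CPM in control cells. Cd68, a lysosomal protein of macrophages, and Mgst1, a glutathione transferase, were called lower, with log2 folds of -2.30 and -1.30, and Mgst1 was not called without control cells 1 to 32. Of 16 lymphoid genes 4 passed the filter and none was called, with a median log2 fold of -0.79, against 0.97 under spike-in scaling.

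The 12 genes called lower that ranked first by the smallest absolute log2 fold of the 3 measures, among those read in at least 30% of control cells, came from several families. Myl10, a myosin light chain gene, had lowest, median and highest per-cell levels of 0, 0 and 81.96 CPM in LPS cells and 0, 1.95 and 417 CPM in control cells, and its summed level was 2.14 CPM in LPS and 29.03 CPM in control cells. It was read in 3.26% of LPS cells (95% interval 0.678 to 9.23%) and 37.9% of control cells (28.1 to 48.4%). Nol4l was at 5.65 CPM in LPS and 37.8 CPM in control cells. Pik3cg, the catalytic subunit of PI3-kinase gamma, was at 29.1 CPM in LPS cells and 109 CPM in control cells, in 30.4% of LPS and 49.5% of control cells. Nbeal2, needed for platelet alpha granules, was at 18.9 CPM in LPS and 74.2 CPM in control cells. Zfp358, Aktip, Psd3, Mast3, Tmem206 and the pseudogene 9030619P08Rik had log2 folds of -2.46, -2, -1.71, -1.68, -1.68 and -1.77. Hist1h2bc, given above, is among these 12, and the 12 were read in 30.5% to 49.5% of control cells.

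Most genes that build ribosomes were higher by a small margin, with log2 folds from -0.17 to 1.08. All 30 listed ribosome biogenesis genes passed the filter and 29 had a log2 fold above 0, against 4301 of the 10752 genes past the filter. Their median log2 fold was 0.60, and 2 were called higher, beside 4.19% of all genes. Noc4l was at 306 CPM in LPS cells and 144 CPM in control cells, and Pes1, of the complex that processes ribosomal RNA of the large subunit, at 76.9 CPM in LPS and 37.4 CPM in control cells, with log2 folds of 1.08 and 1.02, and Pes1 was not called without control cells 1 to 32. Gnl3, a nucleolar GTPase of stem cells, was at 457 CPM in LPS and 239 CPM in control cells, and was not called. Per cell a median of 23.5 of the 30 genes was seen in LPS cells and 19 in control cells. The 36 cytosolic ribosomal protein genes had a median log2 fold of 0.04 and no call.

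Energy metabolism showed few calls, beside 4.19% of all genes called higher and 6.43% lower. Of 22 glycolysis genes 21 passed the filter, 2 were called higher and 1 lower, with a median log2 fold of -0.02, which turned positive with TMM, DESeq2 and spike-in scaling. Pfkfb3, an activator of glycolysis, was at 71.9 CPM in LPS cells and 15.4 CPM in control cells, and Hk2, hexokinase 2, at 46.5 CPM in LPS and 10.2 CPM in control cells. Pdk1, the kinase that closes pyruvate dehydrogenase and a gene of hypoxic HSCs, was at 19.1 CPM in LPS cells and 90.9 CPM in control cells. None of 39 nuclear-encoded respiratory chain genes was called, with a median log2 fold of -0.08 that turned positive with TMM, DESeq2 and spike-in scaling. Of 13 mitochondrially encoded genes 9 passed the filter and none was called, with a median of -0.44, which became -0.23 without control cells 1 to 32 and 1.37 under spike-in scaling. Those control cells include cell 13, with 97.9% of its gene reads in mitochondrially encoded genes, and the part of this cell in the median was not tested.

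Lipid synthesis genes were lower where they were called. Of 20 genes of cholesterol synthesis and uptake, with the desaturase gene Scd2 among them, 18 passed the filter, none was called higher and 4 lower. The median log2 fold was -0.50, against 1.30 under spike-in scaling. With control cells 1 to 32 left out as well, spike-in scaling gave 0.02. Scd2 had lowest, median and highest per-cell levels of 0, 0.349 and 466 CPM in LPS cells and 0, 80.8 and 1045 CPM in control cells, and reads were lacking in 46 of 92 LPS cells and 15 of 95 control cells. The sum over cells was 45.7 CPM (95% interval 43.8 to 47.6) in LPS cells and 142 CPM (138 to 145) in control cells. Mvk and Lss, enzymes of the sterol pathway, had log2 folds of -1.67 and -2.12, and were read in 5.43% and 3.26% of LPS cells and in 20% and 8.42% of control cells.

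The series title names cytoplasmic calcium, and its channels, pumps and stores were listed for that reason. Of 24 genes 20 passed the filter, none was called higher and 2 lower, with a median log2 fold of 0.06. Beside these and the calls that follow stand 4.19% of all genes called higher and 6.43% lower. Orai2, a subunit of store-operated calcium channels, was at 7.201 CPM in LPS cells and 20.1 CPM in control cells, and Trpc6 is given above. Without control cells 1 to 32 Orai2 was not called. Mcu, the pore of the mitochondrial uniporter, was at 28.5 CPM in LPS and 13.8 CPM in control cells, not called with all cells and called higher, with a log2 fold of 1.14, without control cells 1 to 32. Of 21 redox and metal defence genes 20 passed the filter and 1 was called, Slc7a11, the cystine importer, which was higher at 10.2 CPM in LPS cells and 0.673 CPM in control cells. The median log2 fold of that list was -0.27, against 1.54 under spike-in scaling. Of 20 stress and unfolded protein genes 18 passed the filter and 1 was called, Asns, the asparagine synthetase gene, which was higher at 258 CPM in LPS cells and 60.9 CPM in control cells. None of 20 constitutive proteasome genes was called, with a median log2 fold of 0.12.

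LPS was set against control in p27 low and p27 high cells as well, and the differences between classes were not tested. In p27 low cells 581 of 10894 genes (5.33%) were called higher and 1256 (11.5%) lower, and in p27 high cells 599 of 11121 (5.39%) and 908 (8.16%). Of the 450 genes called higher in p27 negative cells 257 were also called higher in p27 low cells, 57.1% of the p27 negative and 44.2% of the p27 low calls. In p27 high cells 234 were, 52% and 39.1% of the 2 lists. Of the 691 genes called lower, 209 were also called lower in p27 low cells (30.3% and 16.6%) and 159 in p27 high cells (23.01% and 17.5%). All 3 classes shared 190 of the genes called higher and 75 of those called lower.

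The type I interferon effectors had medians of 3.40 in p27 negative, 3.39 in p27 low and 3.13 in p27 high cells, the GTPases 3.73, 3.54 and 2.74, and the chemokines 4.12, 3.95 and 3.38. Cxcl10 had log2 folds of 11.01, 10.71 and 11.15 in the same order, and Ly6a 3.17, 3.14 and 1.88. G2/M genes had medians of -0.23, -1.58 and 0.16, over 30, 20 and 15 genes past the filter. The share of cells with 5 or more G2/M genes was 95.7% in LPS and 95.8% in control p27 negative cells, 27.8% in LPS and 47.3% in control p27 low cells, and 36.6% in LPS and 55.95% in control p27 high cells. Cish, singled out after its values were seen, had log2 folds of 2.72, 0.50 and 0.07. Vwf, at -1.43, -1.30 and -1.11, and Scd2, at -1.61, -1.23 and -1.12, had negative log2 folds in each class, although Vwf was not called in p27 high cells. In p27 negative cells both turned positive under spike-in scaling with all control cells. With control cells 1 to 32 left out as well, they were at -1.15 for Vwf and -1.04 for Scd2.

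**Figure D5:**
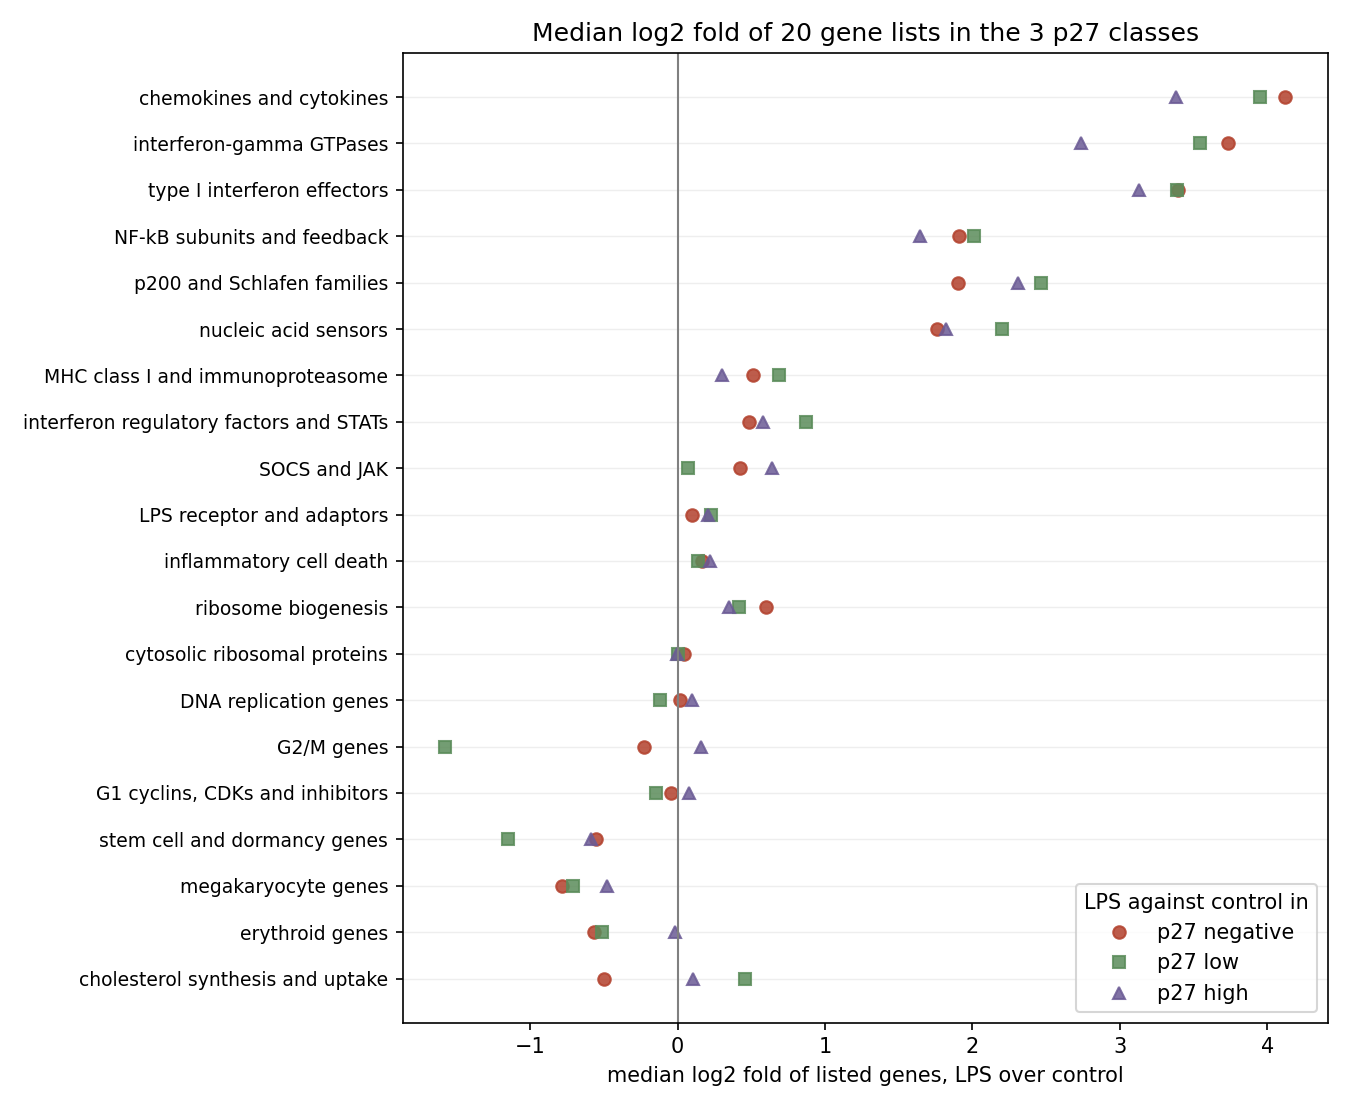
Median log2 fold of LPS over control of 20 gene lists in p27 negative (circles), p27 low (squares) and p27 high cells (triangles), each against the control cells of its own class. The interferon, GTPase and chemokine lists have medians of 2.74 or above in each class, and G2/M genes are at -0.23 in p27 negative and -1.58 in p27 low cells.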

How the data were processed

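Single mouse HSCs had been sequenced as 1 library per cell. The authors deposited whole-number read counts per gene and cell in 1 table for LPS cells and 1 for control cells. Per the submitters' processing notes these were made with GSNAP, HTSeq 0.6.0 and mm10, with the annotation and the strand setting not given in the sources used here. All columns were mapped to a cell by name, and no pair of cells had identical counts. Spike-ins and the 5 summary entries stayed out of the totals: unaligned, ambiguous and featureless reads took 45.1, 5.86 and 6.93% of reads in LPS cells and 50.01, 4.35 and 6.52% in control cells, and genes 41.2 and 36.3%. Of 46078 gene IDs 45143 had a symbol in GENCODE M21, whose mm10 coordinates are used.

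Counts were summed over kept cells into CPM, and per-cell scores and shares were computed after thinning each kept cell to 50000 reads. Each group counts as 1 sample, so there are folds and no tests. edgeR and DESeq2 gave scaling factors for alternatives only. Gene lists, the comparison and the rule for named genes were chosen with earlier results of these data known. That rule took the first 12 genes in each direction by the smallest absolute log2 fold of the 3 measures, among called genes read in at least 30% of cells of the higher group, and up to 4 members per list. Some genes that this rule names are not reported here. Isg15, Gbp3, Nfkbia, Tlr4, Rsad2, Ifit1, Lgals3bp, Ifi27l2a, Rela, Nfkbib, Tnip2, Mavs, Cd44, Itgb3, Mgst1, Txnip, Il6 and Tnf were added after their values were seen. Cells were not checked for doublets: each had been sorted into a well. The computation of folds, calls and intervals was run on simulated counts with the same spread between cells for every gene. It does not cover genes whose reads sit mostly in 1 cell, nor a difference between the tables. Alternatives covered scaling, the weight of cells, the cell and gene filters and the CPM added, and leaving out control cells 1 to 32 was added after the data were seen. Python 3.11.15, numpy 2.4.6, scipy 1.17.1, pandas 2.3.3, R 4.3.3, edgeR 4.0.16 and DESeq2 1.42.0 were used.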

Additional observations from a re-analysis of the deposited data

How the results depend on the processing

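No paired analysis was possible because each group is 1 sample, no test was made, and the shared numbers are numbers of cells. Scaling to spike-ins gave 9454 genes higher and 45 lower, medians of 5.20 for interferon effectors and 5.29 for GTPases, and a positive median of 1.59 for G2/M genes. With control cells 1 to 32 left out as well it gave 1068 higher and 325 lower, and a G2/M median of -0.10. Under spike-in scaling 92 of 108 called genes of the text kept their direction and 77 were still 2-fold apart, and log2 folds turned positive for Aqp1 (0.27), Cd34 (0.70), Mast3 (0.090), Mgst1 (0.33), Mvk (0.021), Orai2 (0.32), Psd3 (0.028), Pycard (0.52), Scd2 (0.19), Tek (0.26), Ticam2 (0.22), Tmem206 (0.094), Trp53inp1 (0.23), Trpc6 (0.56), Txnip (0.63) and Vwf (0.37). Under each of the other settings run on these genes all 108 kept their direction and at least 102 were still 2-fold apart. Spike-in scaling with control cells 1 to 32 left out is 1 of these settings. TMM gave 527 higher and 546 lower, and DESeq2 size factors 539 and 531. Thinned sums gave 1044 lower, summed CPM without the top cell 706 higher and 1164 lower, 5 CPM added 399 lower, no gene filter 703 higher, and a filter at 20 CPM 259 higher and 294 lower. Without control cells 1 to 32 there were 531 genes higher, 389 of them shared with the 450, and 714 lower, 488 shared with the 691. The G2/M median was then -0.51, the control share with 5 or more G2/M genes 100%, and Cd34 (-0.69), Ifngr2 (0.88), Mgst1 (-0.88), Mxd1 (0.70) and Pes1 (0.86) were under 2-fold. Cd86 (1.54), Eda2r (-1.96), H2-Eb1 (-1.29), Irf8 (-1.99), Orai2 (-1.30), Phlda3 (-3.03) and Pycard (-1.05) had no call by the 3 measures and the filter, whereas Tlr2 (1.70) and Mcu (1.14) were called higher and Mpo (-2.48) lower. Log2 folds moved by more than 1.5 times on the linear scale, with the call kept, for Car1 (-7.63), Ccl5 (7.41), Cd74 (4.55), Fas (3.02), Gbp3 (4.93), Icam1 (2.87), Ifit1 (7.88), Ifit3 (6.21), Lss (-2.77), Ly6c2 (-3.31), Relb (4.18), Rsad2 (5.93), Serpina3f (6.46), Thbs1 (-2.85) and Traf1 (4.86). Called genes then numbered 11 higher among sensors, 2 higher and 5 lower among megakaryocyte genes, 1 higher and 4 lower among erythroid genes, 2 higher and 1 lower among gate genes, 3 higher and 1 lower in glycolysis, 1 higher and 2 lower among redox genes, 1 higher and 1 lower among G1 genes, 2 lower among histones, 4 higher among checkpoint and adhesion genes, 1 higher and 1 lower among calcium genes and 2 higher among death genes. The G2/M shares were 98.9% of LPS and 98.95% of control cells without thinning, 84.8% and 71.6% at 15 genes, 98.9% of LPS cells at 3 genes and 86.3% of control cells at 5 reads per gene without thinning. The cause of these shifts was not tested. Depth limits the shares: at 50000 reads a gene of a few CPM is missed in most cells, and intervals cover counting error only.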
